A study of Mus musculus with 3 samples.

Results

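WNT peaks were those of a Foxf2 ChIP-seq peak list from mouse embryonic tongue whose midpoint had its nearest protein-coding transcription start site (TSS) in 1 of 59 WNT genes. There were 257 such peaks among the 25704 of the list that lie on chromosomes 1 to 19, X and Y. The 59 genes were 19 ligands, 15 receptors, 11 secreted antagonists, 9 members of the R-spondin module and 5 intracellular or nuclear effectors. Of these, 45 had at least 1 peak (76.3%, exact 95% interval 63.4 to 86.4), against 8173 of 21938 protein-coding genes (37.3%).

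The embryos were homozygous for an endogenous Foxf2 gene carrying a 3xFLAG epitope tag made by CRISPR/Cas9 editing (Foxf2FLAG/FLAG), and tongues were taken at E12.5. The libraries were 2 of ChIP with an anti-FLAG antibody and 1 of input chromatin with no antibody. The tag was on all embryos, input included, and no FLAG ChIP from untagged tongue was used here. The labels give 75 dissected tongues without saying how these were divided among the libraries. The source is labelled as embryonic tongue cells, so the cell type in which a site was bound is not resolved, and a peak list holds no marker expression against which the tissue could be checked. The values were a single list with 1 score per peak and none per library. The spread between ChIP libraries and the read depth are therefore unknown, and intervals below cover counting of peaks or genes alone. Intervals for peaks treat each peak as a separate draw, although many peaks share a gene, and so may be too narrow.

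WNT proteins are secreted, lipid-modified ligands that bind Frizzled receptors. With the co-receptors Lrp5 and Lrp6 they stabilise beta-catenin, which then acts with Tcf and Lef proteins on DNA, and with Ror and Ryk receptors some of them signal without beta-catenin. Outside the cell, Sfrp and Wif proteins and some Dkk proteins, such as Dkk1, block ligands or co-receptors. All Dkk genes are counted here as secreted antagonists, whether or not each blocks the pathway. R-spondins raise the amount of Frizzled on the cell surface by binding Lgr receptors and the membrane ubiquitin ligases Znrf3 and Rnf43. In the developing tongue this pathway is known for its part in the formation of taste papillae, and in mouse intestine Foxf2 of the stromal fibroblasts is known to restrain WNT signalling.

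The peak sequences are given for the highest-scored peak of each role, for the 2 further peaks that complete the 3 highest scores of all WNT peaks (Dkk2 and the intergenic Sfrp1 peak), and for the highest-scored promoter peak. They were chosen by score and class, whether or not they hold the motif, and are not a sample of the 257. Each is the whole peak in mm10, 5′ to 3′ on the plus strand. Capitals mark every match of the forkhead core, the short sequence that forkhead factors bind, searched on both strands in the forms ATAAACA and ATAAATA and the same with G as the first base, GTAAACA and GTAAATA, so that a match on the minus strand appears as its reverse complement.
Wnt11 (chr7:98911344-98911556, plus strand): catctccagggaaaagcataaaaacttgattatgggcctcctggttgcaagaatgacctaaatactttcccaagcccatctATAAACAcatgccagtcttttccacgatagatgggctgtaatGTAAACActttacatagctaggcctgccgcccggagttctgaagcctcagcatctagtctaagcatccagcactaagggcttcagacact
Ror2 (chr13:53249061-53249273, plus strand): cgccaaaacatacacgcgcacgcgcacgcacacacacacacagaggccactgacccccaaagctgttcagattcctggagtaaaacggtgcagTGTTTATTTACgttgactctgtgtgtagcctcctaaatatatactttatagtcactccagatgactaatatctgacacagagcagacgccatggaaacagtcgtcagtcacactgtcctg
Sfrp1, intron (chr8:23425216-23425428, plus strand): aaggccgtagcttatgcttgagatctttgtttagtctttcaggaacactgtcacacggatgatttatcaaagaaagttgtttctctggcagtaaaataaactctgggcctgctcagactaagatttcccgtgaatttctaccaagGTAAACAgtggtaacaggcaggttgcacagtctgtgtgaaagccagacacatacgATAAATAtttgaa
Rspo1 (chr4:124989689-124989901, plus strand): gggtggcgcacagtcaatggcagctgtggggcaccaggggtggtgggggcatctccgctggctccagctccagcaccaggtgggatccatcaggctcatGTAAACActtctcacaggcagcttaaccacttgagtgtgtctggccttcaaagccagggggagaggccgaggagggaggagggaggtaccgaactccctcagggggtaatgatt
Tcf7l2, intron of Vti1a (chr19:55620635-55620847, plus strand): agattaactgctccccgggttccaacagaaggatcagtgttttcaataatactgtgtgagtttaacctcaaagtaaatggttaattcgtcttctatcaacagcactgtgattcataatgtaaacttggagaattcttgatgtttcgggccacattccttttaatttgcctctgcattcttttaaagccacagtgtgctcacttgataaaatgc
Dkk2 (chr3:132022862-132023074, plus strand): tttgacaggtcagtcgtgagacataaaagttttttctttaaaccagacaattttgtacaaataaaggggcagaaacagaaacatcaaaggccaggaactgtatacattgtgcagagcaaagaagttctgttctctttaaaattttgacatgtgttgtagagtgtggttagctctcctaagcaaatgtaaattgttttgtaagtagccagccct
Sfrp1, intergenic (chr8:23452276-23452488, plus strand): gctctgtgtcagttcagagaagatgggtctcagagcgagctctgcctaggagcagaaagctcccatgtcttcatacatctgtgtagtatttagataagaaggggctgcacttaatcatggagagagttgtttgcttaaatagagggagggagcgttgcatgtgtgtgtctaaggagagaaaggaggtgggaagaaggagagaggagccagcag
Tcf7l2, promoter (chr19:55741642-55741854, plus strand): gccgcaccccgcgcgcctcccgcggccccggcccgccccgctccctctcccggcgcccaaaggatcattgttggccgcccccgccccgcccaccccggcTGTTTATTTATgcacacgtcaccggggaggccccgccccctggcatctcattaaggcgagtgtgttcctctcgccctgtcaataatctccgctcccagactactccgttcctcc

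The Wnt11, Ror2, intronic Sfrp1 and Tcf7l2 promoter peaks each held 2 matches, and the Rspo1 peak held 1. In Ror2 and at the Tcf7l2 promoter the capitals form a continuous run, because the 2 matches overlap there. The Tcf7l2 peak in an intron of the neighbouring gene Vti1a held none of the 4 forms, although it had the highest score among effector peaks. The Dkk2 and intergenic Sfrp1 peaks, the second and the third highest of the 257, held none either.

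A further 10 sites show the match nearest to the centre of the window, read 5′ to 3′ on the strand of the match with 8 bases on each side and the core in capitals. They come from the highest-scored peak of the next 2 genes of each role whose peak held a match.
Wnt16 (core at chr6:22206318-22206324, minus strand): acagatatGTAAACAcagcggtg
Wnt5a (core at chr14:28252468-28252474, minus strand): aaacctaaATAAATAaacgttga
Ryk (core at chr9:102824738-102824744, plus strand): atacatatATAAATAaaaatgaa
Ror1 (core at chr4:100144955-100144961, plus strand): tcccagatGTAAACAgctgctga
Wif1 (core at chr10:121041286-121041292, plus strand): aaaggcacATAAACAaacgtttc
Sfrp2 (core at chr3:83711138-83711144, minus strand): ttaaagcaATAAACAgcactcag
Rspo3 (core at chr10:29636189-29636195, plus strand): gctctcagATAAACAaactataa
Znrf3 (core at chr11:5422253-5422259, plus strand): cataatttGTAAACAaacagagt
Axin2 (core at chr11:108961871-108961877, plus strand): aaaaatgcATAAACAcaggaatg
Lef1 (core at chr3:131079190-131079196, plus strand): ctttgatgGTAAACAgctcttcc

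Wnt16, Ror1, Znrf3 and Lef1 carried the strict form GTAAACA at these sites, Wif1, Sfrp2, Rspo3 and Axin2 carried ATAAACA, and Wnt5a and Ryk carried ATAAATA. Over all 256 matches in the WNT peaks, 114 were ATAAACA (44.5%), 69 GTAAACA (27.0%), 43 ATAAATA (16.8%) and 30 GTAAATA (11.7%). The same forms made up 44.6%, 29.4%, 15.7% and 10.3% of the 25730 matches in all peaks. A match here is a match of letters and was not tested for binding.

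Receptors were the most widely covered role with more than 5 genes. All 15 had a peak, against 11 of 19 ligands, 7 of 11 secreted antagonists, 7 of 9 R-spondin module genes and all 5 effectors. They also had the most peaks together, 90 of the 257, followed by 53 for secreted antagonists, 41 for ligands, 40 for effectors and 33 for the R-spondin module. The mean per gene was 6 ± 4.99 (SD over 15 genes) for receptors, 8 ± 8.63 (5 genes) for effectors, 4.82 ± 4.40 (11 genes) for secreted antagonists, 3.67 ± 3.20 (9 genes) for the R-spondin module and 2.16 ± 4.25 (19 genes) for ligands, against 1.17 ± 2.83 over all 21938 protein-coding genes. The spread among genes of a role was about as large as its mean or larger for ligands and effectors, and the ranges of all roles overlapped. No test between roles was run, since genes of 1 list are not replicates.

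**Figure D1:**
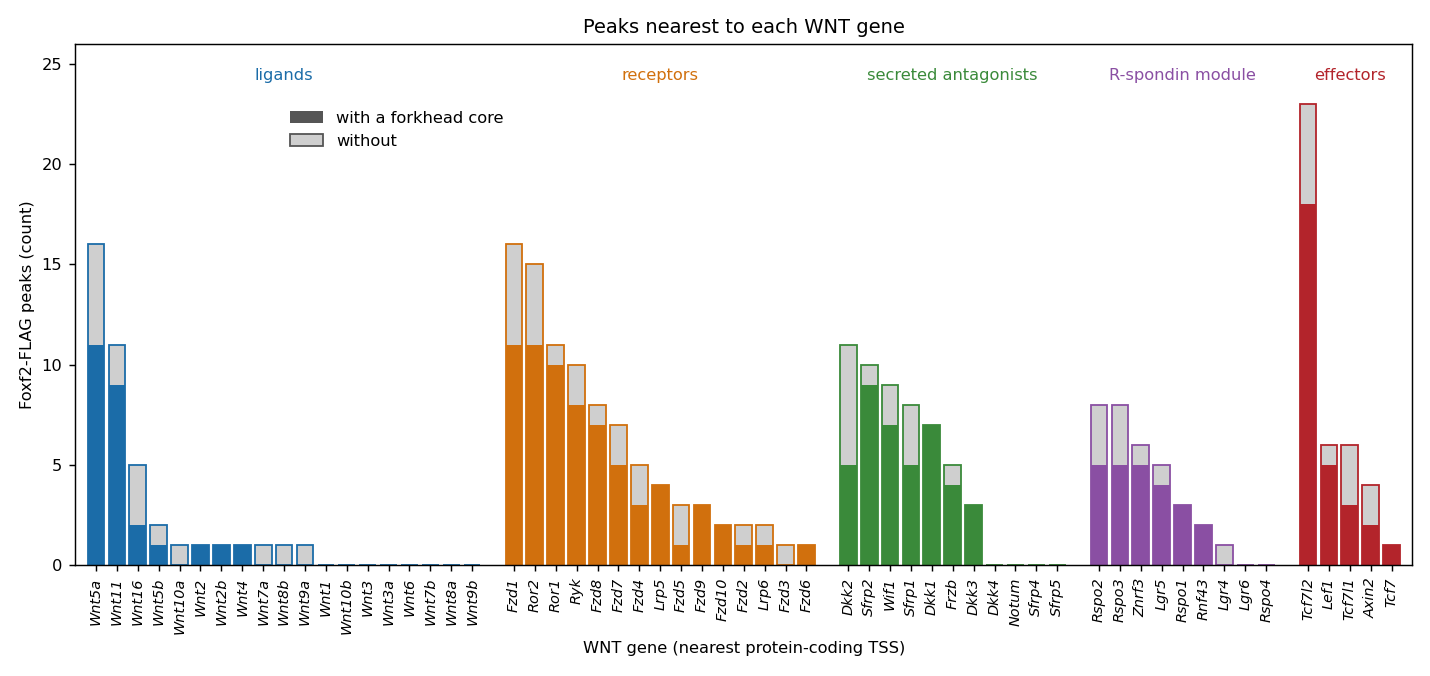
Number of Foxf2-FLAG peaks (vertical axis, count) nearest to each of the 59 WNT genes (horizontal axis), grouped by role. The filled part of a bar counts peaks with a forkhead core in the central 200 bp and the grey part those without. Tcf7l2 reaches 23 and Wnt5a and Fzd1 16 each, while 8 ligands, 4 secreted antagonists and 2 R-spondin module genes have no peak.

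Members with many peaks were frequent. Of the 59 genes, 34 had at least 2 peaks (57.6%, against 19.9% of all protein-coding genes), 23 had at least 5 (39.0% against 7.05%) and 9 had at least 10 (15.3% against 2.26%). Tcf7l2 (23 peaks), Wnt5a and Fzd1 (16 each), Ror2 (15), Wnt11, Ror1 and Dkk2 (11 each) and Ryk and Sfrp2 (10 each) made up these 9. The median WNT gene had 2 peaks and the median protein-coding gene had 0.

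Room for peaks differed between these genes. The territory of a gene was taken as the bases nearer to its TSSs than to those of any other protein-coding gene, and its median was 123.8 kb for WNT genes against 47.0 kb over all protein-coding genes. Per 100 kb of territory the WNT genes together held 2.69 peaks, against 0.943 over all protein-coding genes. Receptors held 3.21, effectors 3.14, secreted antagonists 2.97, the R-spondin module 2.34 and ligands 1.81 peaks per 100 kb. All protein-coding genes were split into 4 classes of equal size by territory. In the longest class (from 110.8 kb) 29 of 31 WNT genes had a peak (93.5%), against 74.0% of all genes. Between 47.0 and 110.7 kb 12 of 14 WNT genes had a peak (85.7%), against 42.4% of all genes. Between 22.2 and 47.0 kb 4 of 10 did, against 21.5% of all genes, and in the shortest class 0 of 4, against 11.1%.

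**Figure D2:**
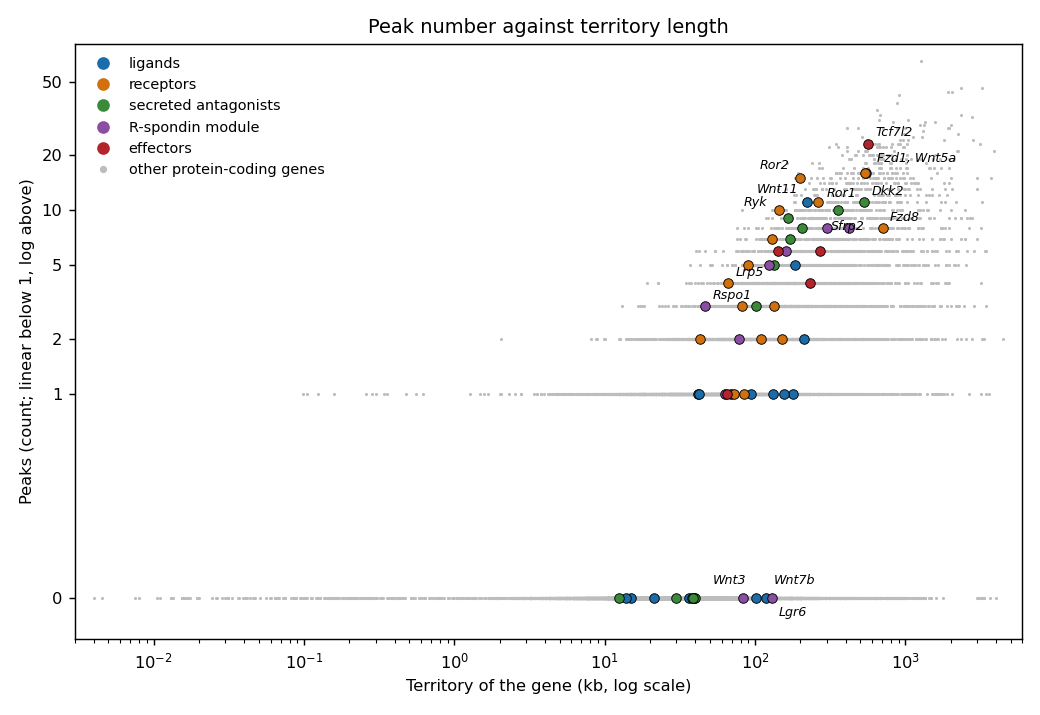
Number of peaks (vertical axis, count, linear below 1 and logarithmic above) against territory length (horizontal axis, kb, logarithmic) for 21938 protein-coding genes, with the 59 WNT genes coloured by role. WNT genes without a peak have territories of at most 128.8 kb, and Tcf7l2, with 23 peaks, has 562 kb.

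Territory length moved with role. Its median was 93.9 kb for ligands and 129.7 kb for receptors, and 8 of 19 ligands but 1 of 15 receptors lay in the 2 shorter classes. Within the longest class 7 of 8 ligands, 8 of 8 receptors, 6 of 6 secreted antagonists, 4 of 5 R-spondin module genes and 4 of 4 effectors had a peak. The ligands without a peak were Wnt1, Wnt3, Wnt3a, Wnt6, Wnt7b, Wnt8a, Wnt9b and Wnt10b, and 6 of them lay in the 2 shorter classes. Among the ligand genes 4 pairs are neighbours on their chromosomes. Wnt1 and Wnt10b, 11.7 kb apart by TSS, and Wnt3 and Wnt9b, 24.3 kb apart, had no peak on either gene. Wnt3a and Wnt9a, 16.2 kb apart, had 1 at Wnt9a, and Wnt6 and Wnt10a, 19.6 kb apart, had 1 at Wnt10a.

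By count, peaks of the ligand genes were concentrated on 3 of them. Wnt5a (ENSMUSG00000021994, chromosome 14, 28504750 to 28527448, plus strand) had 16. Wnt11 (ENSMUSG00000015957, chromosome 7, 98835112 to 98855195, plus strand) had 11 and Wnt16 had 5. Wnt5b had 2, and Wnt2, Wnt2b, Wnt4, Wnt7a, Wnt8b, Wnt9a and Wnt10a had 1 each. Of these 7 lone peaks the highest score was 21.2, at Wnt2, and the lowest 10.5, at Wnt9a. Per 100 kb of territory the differences were smaller. Wnt11 had 4.98 peaks, Wnt5a 2.91 and Wnt16 2.71, against 2.41 at Wnt10a and 2.36 at Wnt9a. The other ligands with a peak had 1.45 or fewer.

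The 13 Wnt5a peaks upstream of the gene all lay in introns of its neighbour Erc2, from 69.5 to 289 kb away. Their scores ran from 13.0 to 35.4. Of these 13, 7 fell into a group of 4 between 161 and 172 kb and a group of 3 between 202 and 210 kb upstream, a group being peaks no more than 10 kb from the next. Close to the gene there was 1 peak, scored 13.7, in the 5′ untranslated region 669 bp downstream of a TSS, and it held no forkhead core. Another 2, scored 10.1 and 17.4, lay 141 and 164 kb downstream.

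Wnt11 had the highest-scored peak of any ligand, 62.2, in an intron of Uvrag 72.6 kb downstream of the Wnt11 TSS (the sequence printed above). Its second, scored 39.0, lay in intergenic sequence 16.8 kb upstream (chromosome 7, 98818177 to 98818389) with 1 forkhead core. A core was present in 9 of the 11 Wnt11 peaks. Wnt16 had the remaining 2 of the 4 highest ligand peaks, 42.8 in an intron of Cped1 81.9 kb upstream (chromosome 6, 22206218 to 22206430, 1 core) and 41.0 in intergenic sequence 22.5 kb upstream (22265623 to 22265835, no core). Few ligand peaks lay inside the ligand gene itself, 3 of 41 (7.32%, interval 1.54 to 19.9), against 74 of all 257 WNT peaks (28.8%, interval 23.3 to 34.7) and 38.8% of all peaks lying inside the gene they were nearest to. Gene length differed too: Wnt5a is 22.7 kb long, Wnt11 20.1 kb and Wnt16 10.3 kb, against 177 kb for Ror2 and 192 kb for Tcf7l2, and its part in these shares was not tested.

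Of the receptors, Ror2, Ror1 and Ryk, which signal largely outside the beta-catenin branch, had at least 10 peaks each. So did Fzd1, with 16. Ror2 (ENSMUSG00000021464, chromosome 13, 53109312 to 53286124, minus strand), a receptor tyrosine kinase for Wnt5a, had 15 peaks, its relative Ror1 had 11 and the atypical kinase Ryk had 10. Per 100 kb of territory they had 7.56, 4.21 and 6.89 peaks. This was not particular to them: Lrp5, a co-receptor of the beta-catenin branch, had 6.03, and Fzd4, Fzd7 and Fzd2 had 5.59, 5.40 and 4.64. The remaining receptors had 3.69 or fewer. Ror2 was the densest of the 59 genes on this scale, followed by Ryk and Rspo1 (6.46).

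The highest-scored receptor peak, 73.4, lay in an intron of Ror2 36.4 kb downstream of the TSS (printed above). Of the 15 Ror2 peaks 10 were inside the gene, and 8 fell into 2 groups of 4, from 62.8 to 80.04 kb and from 102 to 118 kb downstream. Ryk had the next 2 scores, 58.7 and 58.3, in intergenic sequence 10.2 and 10.8 kb upstream (chromosome 9, 102824647 to 102824859 with 1 core, and 102823966 to 102824178 with 2). They belonged to a group of 4 peaks spanning 6.25 kb, all 4 with a core. The fourth was an intronic Ror1 peak 49.2 kb downstream, scored 53.7 (chromosome 4, 100144841 to 100145053, 1 core).

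Frizzled genes, which encode the main WNT receptors, ranged from 16 peaks at Fzd1 to 1 each at Fzd3 and Fzd6. Fzd8 had 8, Fzd7 7, Fzd4 5, Fzd5 and Fzd9 3 each, and Fzd2 and Fzd10 2 each. All 8 Fzd8 peaks lay upstream, and 4 of them between 568 and 619 kb away, scored 13.7, 32.6, 37.3 and 37.8. The Fzd1 peaks lay on both sides, 9 upstream and 7 downstream, and none lay inside Fzd1, which is 4.20 kb long. Of the upstream ones, 5 lay in introns of the neighbouring gene Cdk14, 1 in its 3′ untranslated region and 1 at its transcript end. The highest Fzd1 peak, 39.1, was 273 kb downstream. Of the co-receptor genes, Lrp5 had 4 peaks, each inside Lrp5 and each with a core, and Lrp6 had 2, with scores of at most 16.2 and 13.7.

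**Figure D3:**
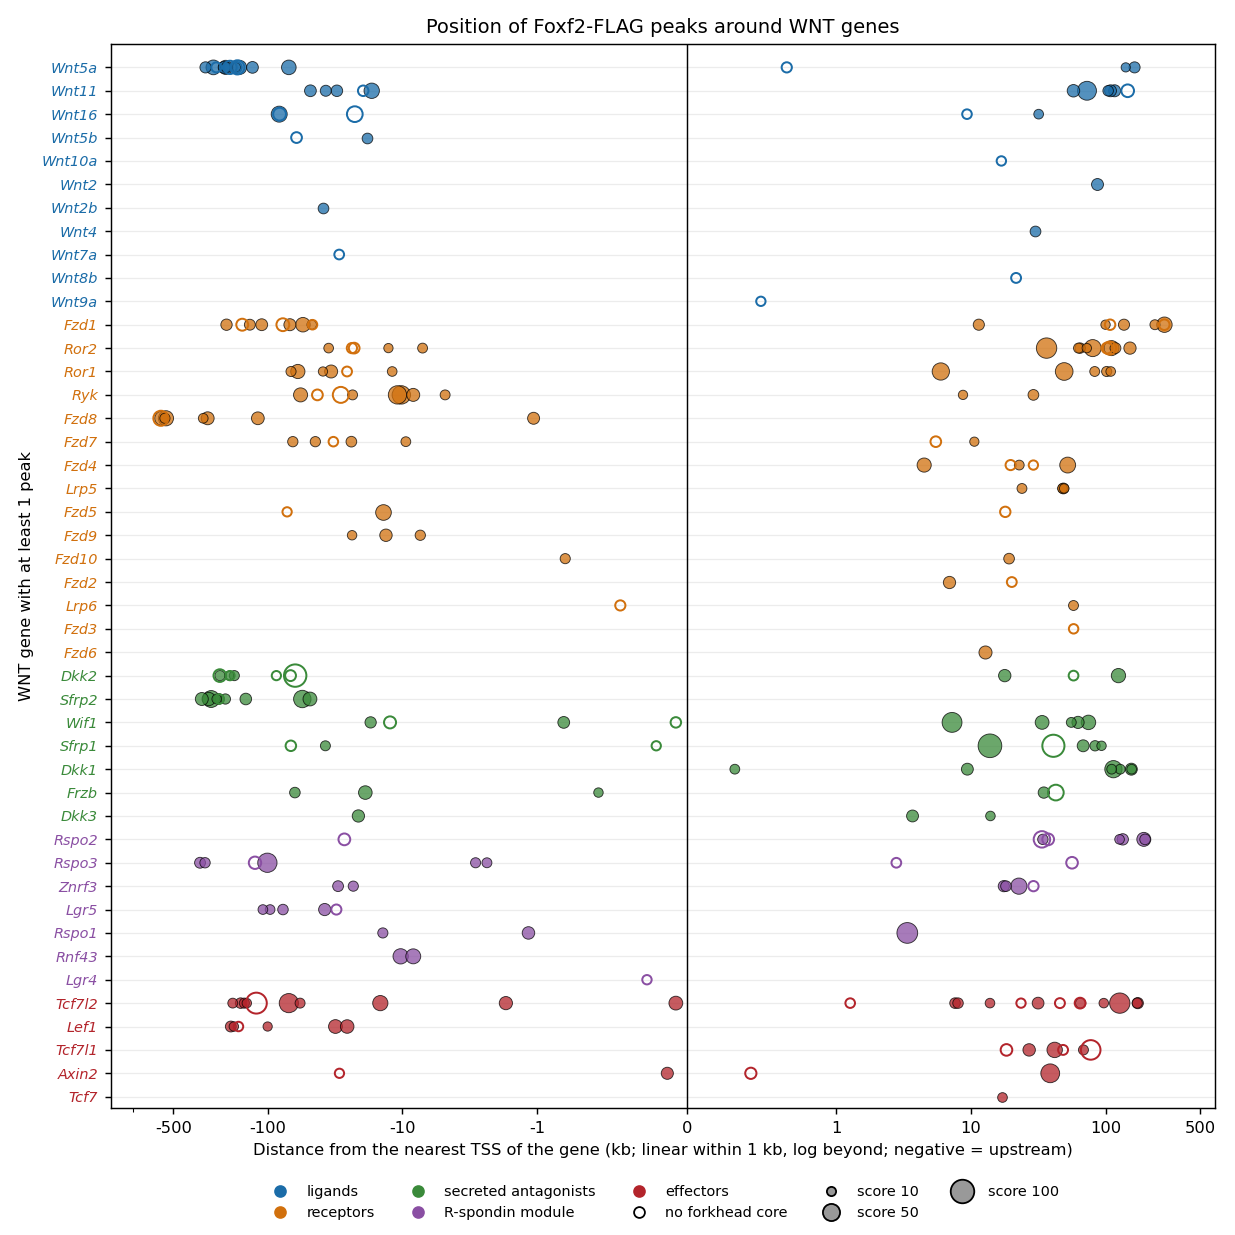
Position of each of the 257 peaks relative to the nearest TSS of its gene (horizontal axis, kb, linear within 1 kb and logarithmic beyond, negative upstream) for the 45 WNT genes with a peak (rows, coloured by role). Filled circles have a forkhead core, open circles have none, and circle area grows with the score. Most peaks lie 10 kb or more away, and 38 lie within 10 kb.

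Secreted antagonists held the highest-scored WNT peaks. The frizzled-related protein Sfrp1, which binds WNT ligands (ENSMUSG00000031548, chromosome 8, 23411502 to 23449632, plus strand), had 8 peaks, with scores of 101.1 at an intronic site 13.8 kb past the TSS (printed above) and 87.7 in intergenic sequence 40.9 kb downstream (23452276 to 23452488). The intronic peak ranked 155 in the whole list. The intergenic one held no core, and the other 6 Sfrp1 peaks scored from 10.3 to 21.1. Dkk2, a Dickkopf protein that binds Lrp co-receptors, had a peak of 89.8 in an intron of the transcript Gm29865, 62.3 kb upstream (chromosome 3, 132022862 to 132023074), also with no core. Wif1, a WNT-binding inhibitor, had 69.4 in its intron 7.23 kb downstream (chromosome 10, 121041148 to 121041360) with 1 core.

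All 10 Sfrp2 peaks lay upstream of the gene, from 48.4 to 307 kb, with 9 holding a core and scores from 11.3 to 51.9. Dkk1, an inhibitor of Lrp5 and Lrp6, had 7 peaks, each with a core and each downstream of the TSS. The 5 farther ones lay 111 to 156 kb away, with 50.7 the highest, and 1 of 12.2 lay in a coding exon 322 bp downstream. Dkk2 had 11 peaks, of which 5 held a core. Wif1 had 9 peaks, Frzb (also called Sfrp3) 5 and Dkk3 3, whereas Sfrp4, Sfrp5, Dkk4 and Notum, whose product inactivates WNT by removing its lipid, had none. These 4 had territories of at most 39.7 kb.

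In the R-spondin module, Rspo2 and Rspo3 had 8 peaks each, Znrf3 6, Lgr5 5, Rspo1 3, Rnf43 2 and Lgr4 1, and Rspo4 and Lgr6 had none. The highest-scored peak was at Rspo1, 76.2, an intronic site 3.37 kb past the TSS (printed above), and its focus ratio of 0.931 was the highest of the 257. This value comes from a column headed as focus ratio or region size and was read as the focus ratio, a measure of how tightly reads sit at a peak, because all peaks have 1 width and the values lie between 0 and 1. Rspo3 had 65.0 in intergenic sequence 100.2 kb upstream (chromosome 10, 29635996 to 29636208, 1 core), Rspo2 had 45.6 in its intron (chromosome 15, 43137113 to 43137325, no core) and Znrf3 had 44.1 in its intron (chromosome 11, 5422074 to 5422286, 1 core). Of the 6 Znrf3 peaks 5 lay within its introns and formed a group spanning 15.9 kb. Lgr6 had a territory of 128.8 kb, the longest of any WNT gene without a peak.

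Tcf7l2, 1 of 4 genes for the Tcf and Lef proteins that bring beta-catenin to DNA, led the effectors and the whole set with 23 peaks (ENSMUSG00000024985, chromosome 19, 55741820 to 55933654, plus strand). Of these, 11 lay inside the gene, 5 in introns of the upstream neighbour Vti1a and 5 in intergenic sequence downstream of the gene. A core was present in 18. Of the 4 highest effector scores 3 were its own: 77.6 in the Vti1a intron 121 kb upstream (printed above), 73.0 in intergenic sequence 127 kb downstream (56022497 to 56022709, 1 core) and 64.2 in its own intron (55825911 to 55826123, 3 cores). The remaining 20 scored from 10.4 to 38.2. Tcf7l1 had the third of the 4, 67.1 in its intron 77.4 kb downstream of a TSS (chromosome 6, 72711494 to 72711706, no core), among 6 peaks that were all inside the gene. Lef1 also had 6, all upstream, from 25.6 to 187 kb, and Tcf7 had 1, scored 11.8. Axin2, a scaffold of the beta-catenin destruction complex and itself a target of the pathway, had 4, the highest scored 61.6 and 38.7 kb downstream.

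**Figure D4:**
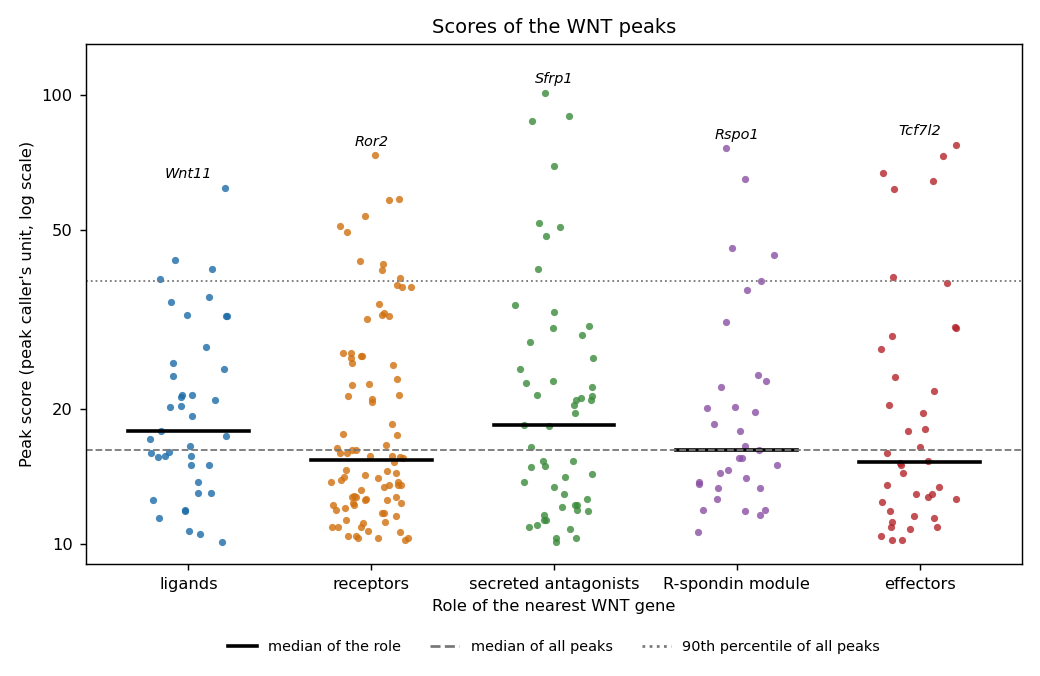
Scores of the 257 WNT peaks (vertical axis, the caller's unit, logarithmic) by role of the nearest WNT gene, 1 point per peak, spread sideways for clarity, with the gene of the highest point named. Black bars are role medians (15.2 to 18.4), and grey lines mark the median (16.2, dashed) and 90th percentile (38.6, dotted) of all 25704 peaks.

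WNT peaks scored from 10.1 to 101.1, against 10.1 to 243.9 for all peaks. Their median was 15.9 (25th and 75th percentiles 12.6 and 26), against 16.2 (12.3 and 24.5) for all peaks, and 32 of 257 (interval 8.67 to 17.1%) scored at least 38.6, as did 10.1% of all peaks. At or above the median of the list lay 127 WNT peaks, and 32 of the 59 genes had such a peak (54.2%), against 24.6% of all protein-coding genes. Role medians were 17.8 for ligands, 15.4 for receptors, 18.4 for secreted antagonists, 16.2 for the R-spondin module and 15.2 for effectors, and the ranges of the 5 roles overlapped. The median focus ratio was 0.774 for WNT peaks and 0.783 for all peaks.

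Promoters, from 1000 bp before to 100 bp after any annotated TSS, held 14 WNT peaks (5.45%, interval 3.01 to 8.97), against 8.52% of all peaks. Of the 14, 9 lay in promoters of 8 WNT genes themselves and 5 at starts of other annotated transcripts. The 8 genes are 13.6% of the 59, against 7.65% of all protein-coding genes with a promoter peak. No ligand was among them, although Wnt9a and Wnt5a had peaks 496 and 669 bp downstream of a TSS.

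The 9 promoter peaks were modest in score. At Tcf7l2 a peak of 30.4 lay 72 bp upstream of the TSS (printed above). Axin2 had 21.9 at 129 bp upstream of a TSS inside the gene, with 1 core (chromosome 11, 108922946 to 108923158). Another Axin2 peak, scored 18, lay 429 bp downstream of the TSS at the gene's start, outside the promoter class and with no core. Wif1 had 2, 20.4 at 821 bp upstream with 1 core (121033033 to 121033245) and 14.8 at 72 bp upstream with none (121033782 to 121033994). Lrp6 had 13.7 at 443 bp upstream with none (chromosome 6, 134567250 to 134567462), and Fzd10 had 13.5 at 811 bp upstream with 2 (chromosome 5, 128599927 to 128600139). Frzb had 10.9 at 589 bp upstream with 1 (chromosome 2, 80448108 to 80448320), Lgr4 10.6 at 265 bp with none (chromosome 2, 109917276 to 109917488) and Sfrp1 10.3 at 203 bp with none (chromosome 8, 23411193 to 23411405). At least 1 core was thus present in 5 of the 9.

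Away from promoters, 125 WNT peaks lay in introns (48.6%, interval 42.4 to 54.9, against 45.4% of all peaks) and 104 between genes (40.5%, interval 34.4 to 46.7, against 40.7%). Of the intronic ones, 56 lay in an intron of another gene than the one they were assigned to (21.8% of WNT peaks, interval 16.9 to 27.3, against 13.9% of all peaks). A few loci gave many of the 56: 13 were the Wnt5a peaks in Erc2 and 8 were Dkk2 peaks in Gm29865. The median distance to the TSS was 49.2 kb, against 51.3 kb for all peaks. Between 10 and 50 kb lay 91 WNT peaks (35.4%, interval 29.6 to 41.6), against 28.5% of all peaks, and within 1 kb lay 13 (5.06%, interval 2.72 to 8.49), against 9.27%. WNT peaks were upstream of their TSS in 139 cases (54.1%, interval 47.8 to 60.3), against 44.2% of all peaks. Wnt5a gave 13 of the 139, and Sfrp2 and Tcf7l2 gave 10 each. Within 10 kb of another peak of the same gene lay 140 of the 257 (54.5%), in 58 groups at 28 genes, against 35.6% of all peaks, grouped in the same way. The mean number of peaks per gene also differed, 4.36 for WNT genes against 1.17 for all protein-coding genes, and its part in this difference was not tested. The nearest TSS need not be the gene that a site acts on: for 54 of the 257 peaks a TSS of another protein-coding gene was no more than 1.5 times as far away. When TSSs of noncoding genes and pseudogenes also competed for peaks, 103 peaks were left to the WNT genes, at 33 of the 59. The matching share of all protein-coding genes is not given.

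The forkhead core was present in the central 200 bp of 187 WNT peaks (72.8%, interval 66.9 to 78.1), against 72.5% of all peaks. Windows of the same length 2000 bp to either side held it in 15.2% of cases around WNT peaks and 18.4% around all peaks. By role the share was 63.4% for ligands (interval 46.9 to 77.9), 75.6% for receptors (65.4 to 84.0), 75.5% for secreted antagonists (61.7 to 86.2), 72.7% for the R-spondin module (54.5 to 86.7) and 72.5% for effectors (56.1 to 85.4), and the interval of each role included the share of all peaks. At least 2 cores were in 62 WNT peaks (24.1%, against 21.3% of all peaks). The strict form was in 64 (24.9%, interval 19.7 to 30.7, against 27.4%). The core was present in 100 of 127 WNT peaks at or above the median score of the list (78.7%) and in 87 of 130 below it (66.9%), close to 78.4% and 66.6% of all peaks. Of 45 highest-scored peaks, 1 per gene, 32 held a core. The matching share for the highest-scored peak of every protein-coding gene is not given.

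The TCF/LEF sequence, which Tcf7, Tcf7l1, Tcf7l2 and Lef1 bind, was searched in the same windows in the forms AACAAAG and ATCAAAG as well as TACAAAG and TTCAAAG on both strands. It was in 66 WNT peaks (25.7%, interval 20.5 to 31.5), against 24.4% of all peaks, with 16.1% and 17.4% in the flanks. The form AACAAAG can overlap a forkhead core ending in ACA, and counting matches that overlap no forkhead match left 58 WNT peaks (22.6%), against 21.2% of all peaks. The R-spondin module had the highest share, 13 of 33 (39.4%, interval 22.9 to 57.9), and secreted antagonists the lowest, 11 of 53 (20.8%, interval 10.8 to 34.1). These intervals overlap, and that of the R-spondin module includes the 24.4% of all peaks. Counting only matches that overlap no forkhead match, the module kept its 13 of 33. The 21.2% of all peaks by that count lay just below the interval. The module was singled out as the highest of the 5 roles, and this gap was not tested. Znrf3 had the sequence in 5 of its 6 peaks and so gave 5 of the 13 of the module. These 5 are the peaks of its intronic group, which spans 15.9 kb. Rspo3 had it in 3 of 8 peaks, Lgr5 in 2 of 5, Rspo2 in 1 of 8, Rspo1 in 1 of 3, Rnf43 in 1 of 2 and Lgr4 in 0 of 1. At the Axin2 promoter that lies inside the gene, the peak held 2 TCF/LEF matches beside its forkhead core. The peak 429 bp downstream of the gene's start held 1 TCF/LEF match and no core.

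**Figure D5:**
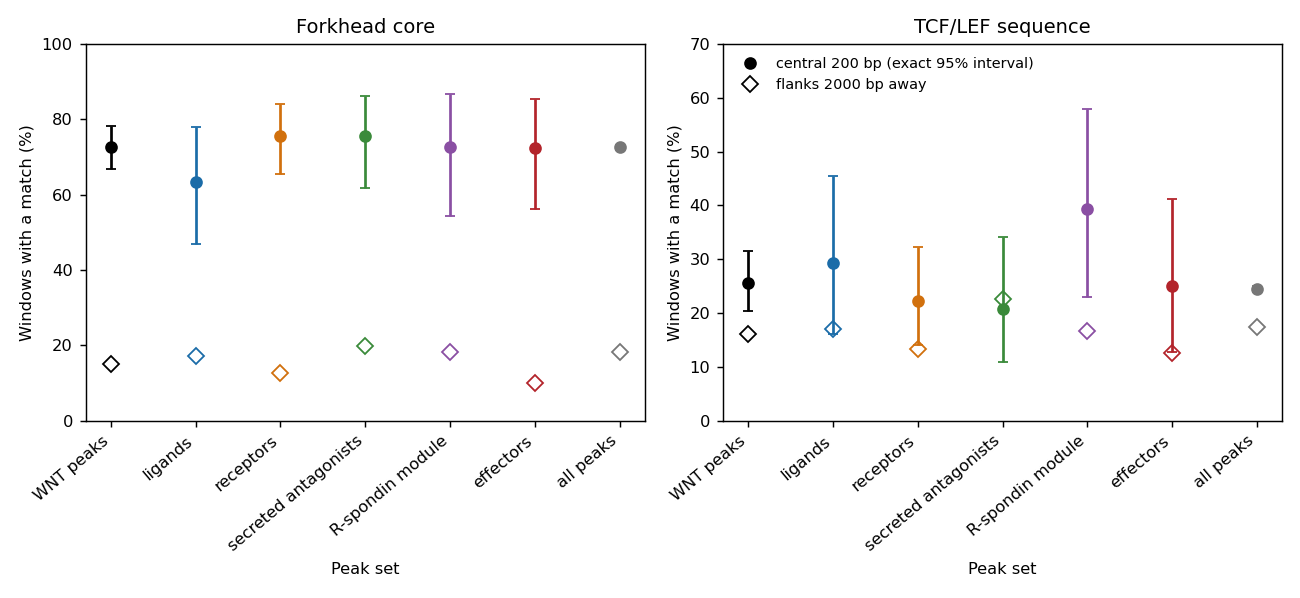
Share of peaks (vertical axis, percent) with a forkhead core (left) or a TCF/LEF sequence (right) in the central 200 bp, for all WNT peaks, each role and all 25704 peaks (filled circles, bars are exact 95% intervals), and in flanks 2000 bp away (open diamonds). The forkhead share of the WNT peaks, 72.8%, is level with the 72.5% of all peaks, and the R-spondin module has the highest TCF/LEF share at 39.4%.

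Other sequences were near the level of the whole list. The E-boxes CATCTG and CAGCTG, bound by basic helix-loop-helix factors, were in 24.5% and 20.6% of WNT peaks, against 28% and 18.7% of all peaks. The TEAD sequence ACATTCC was in 7.39%, against 6.31%, and TGACAG of TALE homeodomain factors in 19.1%, against 18.0%. The interval of each WNT share included the share of all peaks. The E-box form CATCTG was in 4 of 40 effector peaks (10%, interval 2.79 to 23.7), below the 28% of all peaks. This was the largest such gap among the 5 roles and 7 sequences counted, and it was not tested. The median GC content of the windows was 44.5%, against 43.5%.

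Other genes of the pathway, a list of 51 outside the 59, had peaks in 36 cases (70.6%, interval 56.2 to 82.5, against 37.3% of all protein-coding genes) and 198 peaks in all. Territory was not matched in this comparison. Each of the 51 in the longest class of territory had a peak, against 74.0% of all genes in that class. Those without a peak lay in the shorter classes. In the beta-catenin destruction complex and its partners 9 of 10 had a peak, with Ctnnb1, which encodes beta-catenin, at 7, the scaffold Apc at 5 and Btrc at 4. Of the Dishevelled genes and their regulators 6 of 8 did, and Dact1, which binds Dishevelled, had 23 peaks in a territory of 347 kb (6.63 per 100 kb), as many as Tcf7l2. Nkd1 had 3 and Nkd2 and Dact2 had 2 each, whereas Dvl1 and Dvl3 had none and Dvl2 had 1. Of the nuclear cofactors 6 of 10 did, led by the corepressors Tle4 with 18 and Tle3 with 11, then Tle1 and Ctbp2 with 7 each. Of the planar cell polarity genes 7 of 9 did, led by Prickle1 with 21, Daam1 with 16 and Prickle2 with 15, whose highest peak scored 97.7. Of the other membrane and secreted modulators 6 of 10 did, with Apcdd1 at 7, Shisa2 at 6 and Tpbg at 5. Of the genes for ligand secretion and matrix, Trabd2b had 5, Wls 1, and Porcn and Cthrc1 none.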

How the data were processed

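ChIP and input libraries came from E12.5 tongues. Reads were aligned to mm10 and peaks were called with HOMER, with input as its control, per the labels' design text. The submitters' processing notes name Bowtie2 2.4.1, SAMtools 1.7.1 and HOMER without a version. How libraries were pooled, the caller's settings and the depth were not stated. Each peak carries a deposited score, set by the authors on an unstated scale, and a deposited value read here as the focus ratio, which is a fraction. Both were used only to describe and rank peaks.

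The list holds 25707 peaks, of which 3 lie on an unplaced contig and were not used. Each midpoint was assigned to the nearest TSS of a protein-coding gene in GENCODE M21 basic, and bases were read from the same build, start and end inclusive (213 bases per peak). A peak took the first class that its midpoint met: promoter, end of a transcript (from 100 bp before to 1000 bp after it), exon (coding, untranslated or noncoding), intron, or intergenic. Intervals are Clopper-Pearson at 95%. Named were every WNT gene, the 4 highest-scored peaks of each role, every promoter peak and up to 3 other pathway genes per group (ties included). Other genes and peaks were named after their values were seen. The members and lists were chosen with earlier results of these data known. No test was run, as a single list has no replicates. Software was Python 3.11.15 with pysam 0.24.0, pandas 2.3.3, numpy 2.4.6, scipy 1.17.1 and matplotlib 3.10.9.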

Additional observations from a re-analysis of the deposited data

How the results depend on the processing

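Of 60 values recomputed under other lists, annotations, windows and motif forms, 38 stayed within their interval (counts within 1.5 times) and 22 moved. With peaks at or above the median score of the list, there were 127 WNT peaks with a median score of 26.2, and a peak remained for 54.2% of WNT genes, 21.1% of ligands, 73.3% of receptors and 47.1% of other pathway genes, while the forkhead core was in 78.7% (78.4% of all peaks in that range). With TSSs of all annotated genes, noncoding ones included, 103 WNT peaks were left, at 55.9% of WNT genes, 31.6% of ligands and 52.9% of other pathway genes. The share of all protein-coding genes under this assignment is not given. Their 37.3% was counted with protein-coding TSSs alone and is not a like comparison. Within 10 kb of the TSS there were 38 WNT peaks with a median score of 14.9, of which 26.3% were in promoters. They lay at 40.7% of WNT genes, 15.8% of ligands, 66.7% of receptors and 40% of effectors. Other pathway genes had such a peak in 51.0% of cases and all protein-coding genes in 19.4%. The promoter share of all peaks within 10 kb is not given here. In the central 100 bp the TCF/LEF sequence was in 15.95% of WNT peaks, and the share of all peaks in that window is not given. The strict form alone was in 24.9% of WNT peaks, against 27.4% of all peaks. At least 2 peaks were found for 57.6% of WNT genes, against 19.9% of all protein-coding genes. The cause of these moves was not tested, beyond the fewer peaks, smaller windows or fewer forms that some settings count by construction. Leaving out either ChIP library could not be run, as no value belongs to a library. No paired analysis was possible because the list has no columns per replicate. The unknown depth limits every statement on genes without a peak.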

Other observations

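Assignment by nearest TSS left 15 peaks outside the set although they lay inside a WNT gene, because the TSS of a neighbour was nearer. Ror1 had 6 of them, with scores of 10.3, 10.9, 11.1, 25.6, 28.7 and 33.2, all nearest to Ube2u. Tcf7l1 had 4, with scores of 11.6, 11.7, 15.1 and 15.4, nearest to Tgoln1. Lgr4 had 2 (11.1 and 22.5, nearest to Ccdc34), Lgr5 2 (15.6 and 17.6, nearest to A930009A15Rik) and Lrp6 1 (10.7, nearest to Bcl2l14). The Lgr4 count of 1 is therefore lower than the number of peaks in and around that gene.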
